A study of Mus musculus with 8 samples.

Results

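The fatty acid desaturases and elongases described here are 10 genes, *Scd1*, *Scd2*, *Fads1*, *Fads2*, *Elovl1*, *Elovl2*, *Elovl3*, *Elovl5*, *Elovl6* and *Elovl7*. They were taken by gene symbol from a deposited table of 27179 genes, and all 10 were found. RNA sequencing was performed on 8 livers, 4 from wild-type mice and 4 from mice homozygous for V227A, an exchange of valine for alanine in PPARɑ, a nuclear receptor that controls lipid genes. All were adult males of the strain C57BL/6NHsd and had been fasted for 6 h. The substitution was made in the germline by base editing. It is therefore present in every tissue, and the colony came from a heterozygous founder that was backcrossed to the same strain. The value used for each gene is the authors' average log2 CPM over all 8 livers, where CPM is the read count scaled to library size. It has no value per liver, no SD and no split by genotype. A difference between V227A and wild-type was therefore not analysed here, and the levels below are those of both genotypes together.

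Desaturases introduce double bonds into fatty acyl-CoA, and elongases carry out the first and rate-limiting step of a cycle that adds carbon atoms to it. Both work in the endoplasmic reticulum. In liver the monounsaturated branch turns palmitate and stearate into palmitoleate and oleate, which enter triglycerides and cholesteryl esters. The polyunsaturated branch turns the essential fatty acids of the diet into arachidonic and docosahexaenoic acid. A further group of elongases lengthens saturated and monounsaturated chains. Many of these genes are known to respond to SREBP1c, to LXR and to PPARɑ.

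Levels were converted to estimated reads per library and to CPM. To compare genes, CPM was divided by the length of the gene's exons (CPM per kb). The authors' lowest average of -3.78 log2 CPM was read as 0 reads plus a prior count of 2, which gives an average depth of 27473997 reads. How this depth was split over the 8 libraries is not known. Of the 18937 genes with reads, 17956 had a length, and their median level was 1.07 CPM per kb. The 95% intervals given with levels and ratios are exact Poisson or binomial intervals on the estimated reads of all 8 libraries. They cover counting error only, and the spread between livers could not be measured. They also leave out the error of estimating reads from an average. In simulated data this error reached 2.98% for genes with at least 100 reads per library, more than the width of many intervals. The simulation assumed the library sizes and the spread between livers, so the error in the real data may be larger.

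The markers matched the liver label. All 6 hepatocyte markers lay above the median gene, from 207.8 CPM per kb for *Apob* to 29709 CPM per kb for *Alb*. All 4 Kupffer cell markers and all 4 endothelial markers lay above it too, with sums of 49.7 and 12.1 CPM per kb. The sum was 4.03 CPM per kb for 4 cholangiocyte markers, 1.95 for 4 adipocyte markers, 1.48 for 4 brain markers and 0.809 for 4 skin and sebaceous markers. Fewer cells of a type and less RNA per cell cannot be told apart in whole liver.

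For the polyunsaturated branch and for the least abundant member, the promoter windows are shown, since they let the regulatory letters of the evenly expressed genes be compared with those of a scarce one. RefSeq windows of GRCm38.p6, which run from 250 bases before to 50 bases after a gene start, were matched for 6 members, *Fads2*, *Elovl1*, *Elovl2*, *Elovl5*, *Elovl6* and *Elovl7*. *Scd1*, *Scd2*, *Fads1* and *Elovl3* had no entry. Capitals mark letter matches on either strand to the GC box GGGCGG, to the CCAAT box or to the E-box CACGTG. Each sequence is written 5′ to 3′ on the strand of its gene. The windows are chr19:10101454-10101753 on the minus strand (*Fads2*), chr13:41220354-41220653 on the minus strand (*Elovl2*, the first of its windows), chr9:77917115-77917414 on the plus strand (*Elovl5*) and chr13:108214154-108214453 on the plus strand (*Elovl7*).
Fads2: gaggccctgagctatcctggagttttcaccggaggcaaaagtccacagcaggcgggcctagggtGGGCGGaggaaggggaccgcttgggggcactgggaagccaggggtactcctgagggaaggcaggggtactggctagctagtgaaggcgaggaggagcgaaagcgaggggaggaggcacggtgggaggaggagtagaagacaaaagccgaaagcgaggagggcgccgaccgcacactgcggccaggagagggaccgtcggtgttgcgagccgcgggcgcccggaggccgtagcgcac
Elovl2: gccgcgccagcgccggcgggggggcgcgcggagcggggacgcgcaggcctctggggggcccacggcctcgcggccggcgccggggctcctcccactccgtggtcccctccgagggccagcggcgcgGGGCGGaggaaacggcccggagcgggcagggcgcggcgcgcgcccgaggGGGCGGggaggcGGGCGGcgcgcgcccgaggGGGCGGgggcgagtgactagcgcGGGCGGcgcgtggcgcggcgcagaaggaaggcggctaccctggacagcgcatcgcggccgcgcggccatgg
Elovl5: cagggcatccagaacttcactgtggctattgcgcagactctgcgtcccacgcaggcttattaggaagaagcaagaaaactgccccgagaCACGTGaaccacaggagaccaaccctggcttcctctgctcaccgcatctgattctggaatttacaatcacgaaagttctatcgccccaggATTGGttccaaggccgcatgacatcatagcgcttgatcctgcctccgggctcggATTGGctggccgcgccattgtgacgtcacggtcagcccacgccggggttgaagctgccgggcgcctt
Elovl7: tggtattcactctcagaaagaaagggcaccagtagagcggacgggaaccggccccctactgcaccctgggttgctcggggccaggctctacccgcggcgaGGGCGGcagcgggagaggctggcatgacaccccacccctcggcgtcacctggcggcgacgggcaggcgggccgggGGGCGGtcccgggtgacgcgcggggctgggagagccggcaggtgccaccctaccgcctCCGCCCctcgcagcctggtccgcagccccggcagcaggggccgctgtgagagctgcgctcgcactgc

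The *Elovl2* window held GGGCGG at 5 places, the *Elovl7* window at 3 and the *Fads2* window at 1. The nearest of them to the gene start began 21 bases before it in *Elovl2* and 17 bases before it in *Elovl7*. The *Elovl5* window differed in kind, with CCAAT starting 71 and 17 bases before the gene start, both on the opposite strand, and CACGTG starting 161 bases before it. Over all 32851 windows of the RefSeq table, 35.7% held GGGCGG, 37.4% held CCAAT and 7.15% held CACGTG. The *Elovl1* window at chr4:118427843-118428142 had 5 matches to GGGCGG, 1 of which shares bases with a match to CCAAT. None of the 8 windows of the 6 members held TATAAA or the sterol regulatory element core TCACNCCAC, which 13.6% and 1.24% of all windows held. The nuclear receptor half-site AGGTCA was found once in *Elovl6*, starting 193 bases before the gene start, and once in the second window of *Elovl1*, against 16.3% of all windows. A direct repeat of that half-site with 1 base between is the arrangement that PPARɑ and RXR are known to bind. As exact letters it was found in 0 of the 8 windows and in 0.0396% of all windows. Exact copies of this repeat and of the sterol core are so rare that 0 in 8 windows tells nothing about these genes. Inexact sites and sites outside the windows were not searched. The ratio of observed to expected CpG was 1.08 in *Elovl2*, 0.808 in *Elovl5*, 0.763 in *Fads2* and 0.731 in *Elovl7*, against a median of 0.384 over all windows. The window of the scarce *Elovl7* held GC boxes, as did the first window of *Elovl2* and that of *Fads2*. The second *Elovl2* window held no match to GGGCGG. The CpG ratio of *Elovl7* was close to that of *Fads2*. G and C made up 84.7% and 76.7% of the 2 *Elovl2* windows, 74.0% of *Elovl7*, 67.0% of *Fads2* and 57.7% of *Elovl5*. The motif shares were not adjusted for this. Whether these letters bear on the levels was not tested.

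Of the 10 members, 8 lay above the median gene per length, and *Scd2* and *Elovl7* lay below it. The members together took 0.571% of all reads. From the highest to the lowest, the level spanned 817.1 to 0.0575 CPM per kb. The order was *Scd1*, *Elovl3*, *Fads2*, *Fads1*, *Elovl2*, *Elovl5*, *Elovl1*, *Elovl6*, *Scd2* and *Elovl7*. *Scd1* stood 5.19 times above *Elovl3*, *Elovl5* 4.62 times above *Elovl1*, *Elovl6* 15.0 times above *Scd2*, and *Scd2* 9.94 times above *Elovl7*. The other neighbours differed by at most 1.54 times. Among these, the order of *Fads1* and *Fads2* turned when the longest transcript or the coding length was used, that of *Elovl2* and *Elovl5* turned with the longest transcript, and that of *Elovl1* and *Elovl6* turned with the coding length. *Elovl2* also came before *Fads2* with the coding length. These pairs are therefore not ranked here. *Elovl3* kept its place behind *Scd1* with all 3 lengths, but in CPM, not divided by length, it came after *Fads1* and *Fads2*. The ratio of *Scd1* to *Elovl3* was 9.82 by coding length and 12.9 in CPM.

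**Figure D1:**
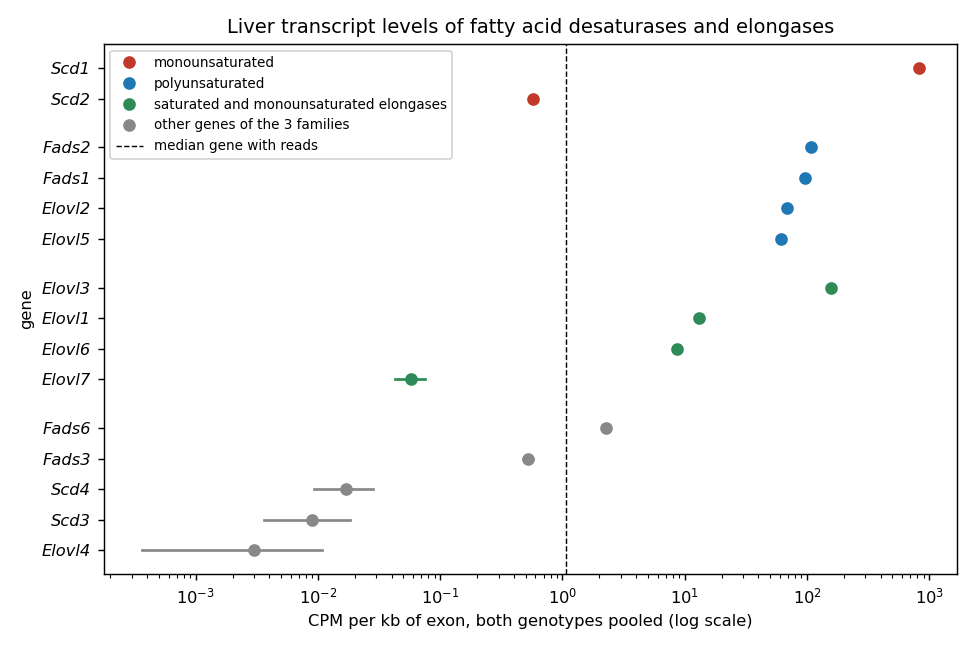
Each point is a gene's level in CPM per kb of exon on a log axis, both genotypes pooled, with a line for the 95% counting interval (hidden behind the point where it is narrow); colours mark the branches and the dashed line is the median gene with reads (1.07). *Scd1* stands at 817.1, the 4 genes of the polyunsaturated branch lie between 61.0 and 108.3, and *Elovl7* at 0.0575 is the lowest member.

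The monounsaturated branch rested on a single gene. *Scd1*, which encodes the stearoyl-CoA desaturase of adult liver and inserts the first double bond into saturated chains, lies on chromosome 19 of GRCm38 from 44394455 to 44407879 on the minus strand. The authors' average was 11.96 log2 CPM, or 3997 CPM and an estimated 109822 reads per library. Per length this was 817.1 CPM per kb (95% counting interval 815.4 to 818.8), higher than 99.6% of the genes with reads. *Scd2* (chromosome 19, 44293674 to 44306864, plus strand) encodes an enzyme of the same activity that is known from brain and from the liver and skin of newborn mice. Its average was 1.68 log2 CPM, from an estimated 85.9 reads per library, and its level of 0.572 CPM per kb (0.530 to 0.616) was higher than 43.0% of the genes. *Scd1* was 1428 times more abundant per length than *Scd2* (counting interval 1325 to 1542). Of the branch's summed level, 99.9% was *Scd1*.

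The paralogs *Scd3*, known from sebaceous glands, and *Scd4*, known from heart, were close to absent. *Scd3* had an estimated 6.98 reads and *Scd4* 14.0 reads in all 8 libraries together, or 0.00894 CPM per kb (0.00359 to 0.0184) and 0.0169 CPM per kb (0.00924 to 0.0284). The 4 *Scd* genes lie within 204611 bases of chromosome 19. *Scd4* and *Scd1* are neighbours, with 47711 bases between them and opposite strands, and *Scd1* was the highest and *Scd4* the second lowest of the 4. Stretches of identical sequence were short. Of the 100-base windows of the longest *Scd1* transcript, 1.01% also occur in a transcript of *Scd2*, 1.82% in *Scd3* and 0.359% in *Scd4*. With even coverage, 1114 reads of *Scd1* per library would come from the windows shared with *Scd2*, against the 85.9 reads assigned to *Scd2*. The same figure is 1995.5 reads for the windows shared with *Scd3* and 394 reads for those shared with *Scd4*. These 2 paralogs were assigned an estimated 0.872 and 1.75 reads per library. How the authors' counting treated reads with several matches is not given in the sources used here, and the part of such reads in the level of *Scd2* was not tested. Among the markers of brain and of skin and sebaceous glands, *Krt5*, *Krt14*, *Mc5r* and *Snap25* had 0 reads. The other markers on these lists were detected, with 1.32 CPM per kb for *Syt1*, 0.809 for *Krt10*, 0.105 for *Gfap* and 0.0613 for *Mbp*. Of them *Syt1* lay above the median gene. Markers of heart, the tissue named for *Scd4*, were not on the lists. The part of cells of these tissues in the levels of *Scd2*, *Scd3* and *Scd4* was not tested. A count of 0 allows at most 0.00776 CPM per kb (*Krt14*) when 3 reads over all libraries are taken as the limit.

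The polyunsaturated branch was the even one. Its 4 genes differed by at most 1.77 times per kb of exon, between *Fads2* and *Elovl5* (counting interval 1.75 to 1.79). The widest pair depended on the length used. By the longest transcript it was *Fads1* and *Elovl2*, at 1.89 times. By coding length the 4 genes lay between 239.7 (*Elovl5*) and 344.3 CPM per kb (*Fads1*). The levels follow in the order in which the enzymes act. *Fads2*, which starts the route by desaturating linoleic and α-linolenic acid, lies on chromosome 19 from 10062765 to 10101746 on the minus strand. It had 108.3 CPM per kb (107.5 to 109.1) from an estimated 9804 reads per library. *Elovl5* (chromosome 9, 77917364 to 77984519, plus strand) elongates the product, and had 61.0 CPM per kb (60.5 to 61.6) from 5906 reads per library. *Fads1* (chromosome 19, 10182888 to 10196877, plus strand), which then forms arachidonic and eicosapentaenoic acid, had 95.9 CPM per kb (95.3 to 96.5) from 12684 reads per library. *Elovl2* (chromosome 13, 41182381 to 41220405, minus strand) elongates these further on the way to docosahexaenoic acid, and had 68.3 CPM per kb (67.7 to 68.8) from 7438 reads per library. All 4 were higher than at least 96.2% of the genes with reads. The ratio of *Fads1* to *Fads2* was 0.886 per kb of exon, 1.18 by the longest transcript and 1.28 by coding length.

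*Fads3*, which acts on sphingoid bases, completes the *Fads* cluster of 155309 bases on chromosome 19. It ends 2654 bases from the end of *Fads2*, towards which it is transcribed. Its level was 0.520 CPM per kb (0.472 to 0.571), next to the 2 abundant genes of the cluster. No 100-base window of the longest *Fads1*, *Fads2*, *Elovl2* or *Elovl5* transcript occurs in another gene's transcript. *Fads6*, a relative by sequence on chromosome 11, had 2.27 CPM per kb (2.19 to 2.34). It was the only one of the 5 other genes of the 3 families, *Scd3*, *Scd4*, *Fads3*, *Fads6* and *Elovl4*, to lie above the median gene per kb of exon.

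**Figure D2:**
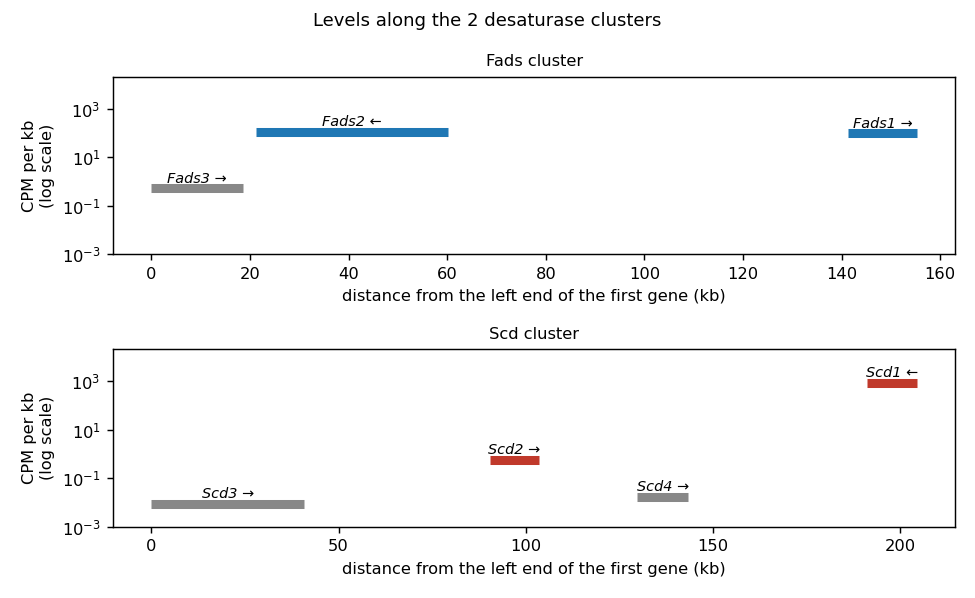
Horizontal bars span each gene of the *Fads* cluster (upper panel) and the *Scd* cluster (lower panel) in kb from the left end of the first gene, arrows give the strand, and the height is the level in CPM per kb on a log axis; red and blue are members, grey the other genes. In each cluster abundant and scarce genes are neighbours, such as *Fads2* (108.3) beside *Fads3* (0.520) and *Scd1* (817.1) beside *Scd4* (0.0169).

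The elongases of saturated and monounsaturated chains were uneven, as was the monounsaturated branch, whose 2 genes differed 1428 times. Per kb of exon, the levels of these elongases spanned 2735 times, and 87.8% of their sum was *Elovl3*. In CPM *Elovl3* (310.8) was also the highest, above *Elovl6* (55.1) and *Elovl1* (36.0). The low end of that span was *Elovl7*, with an estimated 50.8 reads in all 8 libraries. *Elovl3* (chromosome 19, 46131897 to 46135694, plus strand) lengthens saturated and monounsaturated chains, and in mouse liver it is known to vary with sex and time of day. It had 157.4 CPM per kb (156.2 to 158.5) from an estimated 8538 reads per library, and was higher than 98.2% of the genes with reads. The livers were all from males and were taken at the end of a single daytime fast. *Elovl1* (chromosome 4, 118428093 to 118432953, plus strand), which makes the very long chains of ceramides, had 13.2 CPM per kb (12.9 to 13.5) from 988.5 reads per library. *Elovl6* (chromosome 3, 129532355 to 129638495, plus strand) turns palmitate into stearate and is a known SREBP1c target. It had 8.57 CPM per kb (8.42 to 8.72) from 1514 reads per library.

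*Elovl3* was 18.4 times (counting interval 18.0 to 18.7) as abundant as *Elovl6* per kb of exon, and 5.56 times by coding length. The *Elovl6* exons span 6431 bases, of which 801 are coding, against 1975 and 813 for *Elovl3*. Opposite-strand exons of other genes cover 1.94% of the *Elovl1* exon bases (*Cdc20*), 0.529% of those of *Elovl6* (*Gm35986*) and 0.506% of those of *Elovl3* (*Pitx3*). The strand setting of the counting is not given in the sources used here. Of the 100-base windows of *Elovl6*, 0.974% also occur in *Gm11295*.

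*Elovl7*, an elongase of saturated chains, lies on chromosome 13 from 108214404 to 108285683 on the plus strand. The authors' average was -1.72 log2 CPM, from an estimated 50.8 reads in all 8 libraries. Its level was 0.0575 CPM per kb (0.0428 to 0.0757), higher than 23.1% of the genes with reads. *Elovl6* was 148.9 times as abundant per length (counting interval 113.1 to 200.3). *Elovl4*, which makes the longest chains of retina and skin, had an estimated 2 reads in all 8 libraries, or 0.00301 CPM per kb (0.000366 to 0.0109). At this depth neither gene can be described by more than its low level.

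Summed per length, the monounsaturated branch made up 61.5% of the members' level, the polyunsaturated branch 25.1% and the elongases of saturated and monounsaturated chains 13.5%. The branch medians ran in the same order. They were 408.8, 82.1 and 10.9 CPM per kb, the first of them the midpoint of the 2 *Scd* genes and near neither. Without *Scd1* the shares were 0.111%, 65.0% and 34.9%. The 4 desaturases together had 1022 CPM per kb and the 6 elongases 308.5 CPM per kb. *Elovl3* made up 51.0% of the elongase sum per kb of exon. This share depended on the scale, since in CPM *Elovl3* had 310.8 of the 887.8 of the 6 elongases. *Elovl5* also accepts monounsaturated chains, and when it was counted with the elongases of saturated chains, their share was 18.1% and the polyunsaturated share 20.5%.

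**Figure D3:**
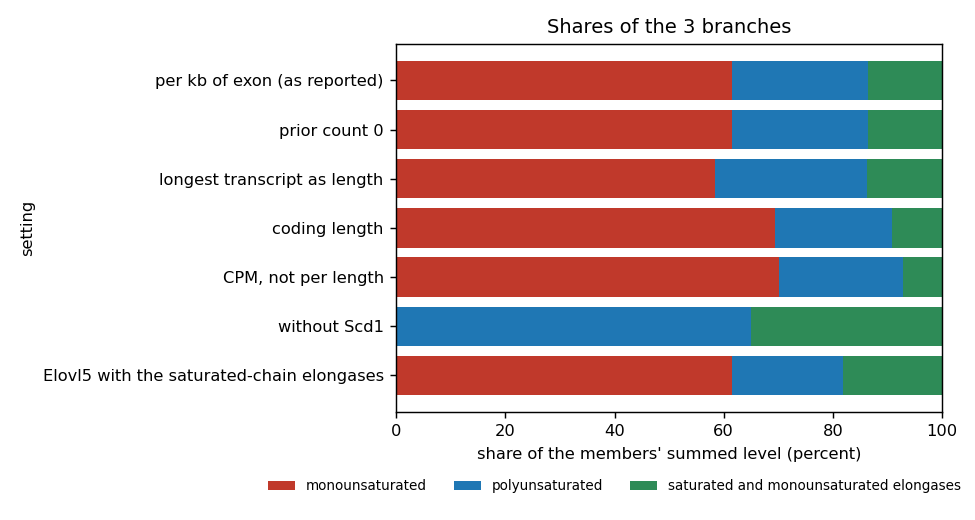
Stacked bars give each branch's share of the members' summed level in percent, for the reported setting and for 6 other ways to compute it. The monounsaturated share lies between 58.4% and 70.1% except without *Scd1*, where the polyunsaturated branch makes up 65.0%.

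The other genes of the pathway were taken from a list of 23, of which 22 lay above the median gene and the dehydratase *Hacd4* (0.103 CPM per kb) lay below it. The elongation cycle needs a reductase, a dehydratase and a second reductase after the elongase. *Hsd17b12*, the first reductase, had 63.4 CPM per kb and *Tecr*, the second, 72.4 CPM per kb. Of the 4 dehydratases *Hacd3* was the most abundant, at 74.6 CPM per kb, followed by *Hacd2* at 8.42 and *Hacd1* at 1.93 CPM per kb. *Hsd17b12*, *Hacd3* and *Tecr* thus had levels near those of *Elovl2* and *Elovl5*. The ratio of *Elovl2* to *Hsd17b12* was 1.08 per kb of exon, 0.879 by the longest transcript and 1.90 by coding length. *Elovl1* and *Elovl6* lay below these 3 partners, and *Elovl3* above them.

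Desaturases draw electrons through cytochrome b5. *Cyb5a* had 269.3 CPM per kb, its outer mitochondrial relative *Cyb5b* 74.4 and the reductase *Cyb5r3* 144.5 CPM per kb. Of the members, *Scd1* was the only one above *Cyb5a* per kb of exon. The 5 genes listed under fatty acid synthesis were lower, from 2.46 CPM per kb for *Acaca* to 22.9 CPM per kb for *Me1*. *Fasn*, fatty acid synthase, had 17.0 CPM per kb, and *Scd1* was 48.0 times as abundant per kb of exon, 151.2 times by coding length and 21.4 times in CPM. *Fads1*, *Fads2*, *Elovl2*, *Elovl3* and *Elovl5* also lay above all 5 of these genes per kb of exon.

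All 7 regulators were detected above the median gene, with *Ppara* (86.5 CPM per kb) the highest and *Srebf1* (17.0 CPM per kb) the lowest of them. *Mlxipl*, which encodes the carbohydrate response factor ChREBP, had 55.3 CPM per kb and *Nr1h3*, which encodes LXRɑ, 44.6 CPM per kb. *Scap*, *Insig1* and *Insig2*, which control the release of SREBP, had 20.2, 44.3 and 45.0 CPM per kb. The peroxisomal genes *Hsd17b4* and *Scp2*, which act in completing docosahexaenoic acid, had 112.3 and 461.9 CPM per kb. Both lay above the 4 genes of the polyunsaturated branch per kb of exon. By coding length *Scp2* (979.0) stayed above these 4 genes. *Hsd17b4* (173.4) lay below all 4, which ranged from 239.7 for *Elovl5* to 344.3 for *Fads1*. *Scp2* is listed as both a thiolase and a sterol carrier. Its level is that of the whole gene, and its transcripts were not separated.

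**Figure D4:**
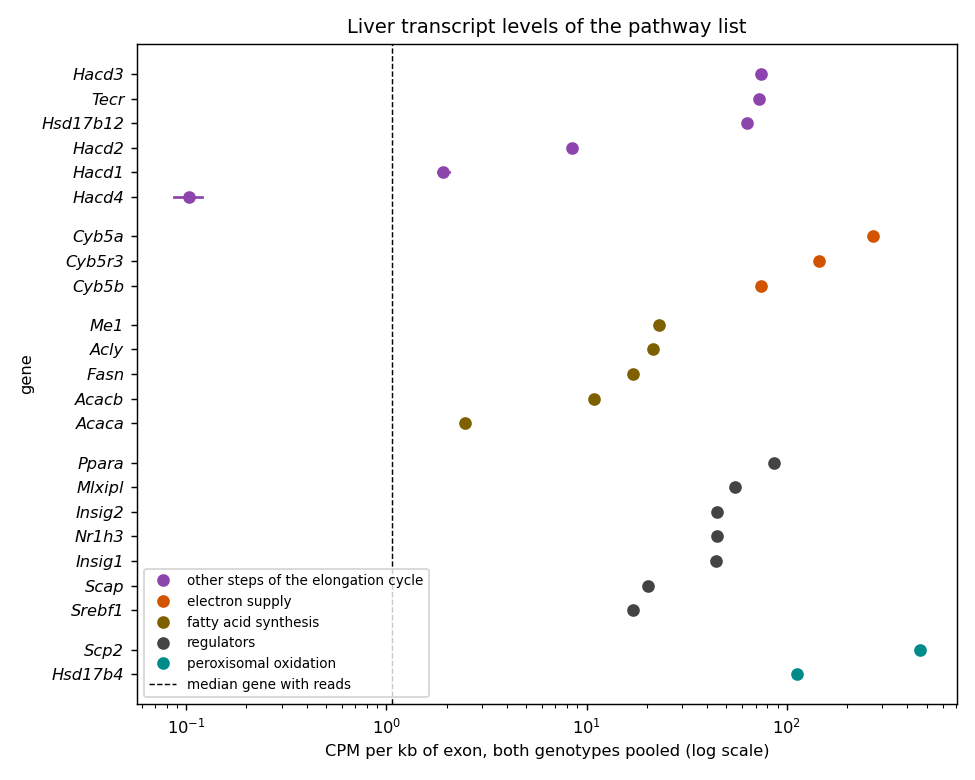
Each point is the level of a gene of the pathway list in CPM per kb of exon on a log axis, both genotypes pooled, with its 95% counting interval as a line, coloured by role; the dashed line is the median gene with reads (1.07). The peroxisomal and electron supply genes lie at 74.4 and above, the fatty acid synthesis genes between 2.46 and 22.9, and *Hacd4* (0.103) is the only one below the median.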

How the data were processed

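Livers of 4 wild-type and 4 V227A mice were sequenced as stranded poly-A libraries with paired ends. The authors trimmed reads with Trimmomatic, assessed them with FastQC, aligned them to GRCm38/mm10 with RNA STAR, counted them with featureCounts and used edgeR; versions, annotation, strand setting and filters are not given in the sources used here. The deposited table holds 1 average log2 CPM for each gene over all libraries, and 0 columns of values per library. Its 4 other numeric columns are the authors' own comparison of the genotypes (log2 fold change, F statistic, p-value and adjusted p-value) and were not used. The planned count test of the genotypes could therefore not be run.

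Genes at the floor of the average log2 CPM (8242) were taken as having no reads. The floor and a prior count of 2 gave the mean library size (27473997 reads), from which the reads of each gene were estimated. As a check, estimated totals between 1 and 5 reads (2378 genes) were whole numbers to within 0.1 in 99.9% of cases. The estimate was also tested on simulated data with assumed library sizes and spread. Its largest error there was 2.98% for genes with at least 100 reads per library. The estimate is near, but not the same as, the arithmetic mean of the libraries. The median gene had 100.1 reads per library. Exon union, longest transcript and longest coding length came from GENCODE vM21 (GRCm38). Scripts used Python 3.11.15, pandas 2.3.3, numpy 2.4.6, scipy 1.17.1 and matplotlib 3.10.9.

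All 10 members, the other genes of the 3 families, 23 pathway genes and the markers (hepatocyte, adipocyte, skin and sebaceous, brain, Kupffer cell, endothelial, cholangiocyte) were named. 1 further gene of the pathway list is not reported here. Members and lists were chosen with earlier results of these data known. Alternatives were the prior count, the length, the scale of sums, and leaving out *Scd1* or moving *Elovl5*. Shared 50- and 100-base windows were exact matches of either strand between transcripts.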

Additional observations from a re-analysis of the deposited data

How the results depend on the processing

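The shares of the monounsaturated, polyunsaturated and saturated-chain branches were 58.4%, 27.8% and 13.7% with the longest transcript as length, 69.4%, 21.5% and 9.13% with the coding length, and 70.1%, 22.9% and 7.05% in CPM not divided by length. Without *Scd1* they were 0.111%, 65.0% and 34.9%. With *Elovl5* moved to the saturated-chain branch the polyunsaturated share was 20.5% and the saturated-chain share 18.1%. With a prior count of 0 all 3 shares stayed within their counting error. This setting adds about 0.0728 CPM to every gene, so it could hardly move shares that rest on abundant genes. It is no test of how stable the shares are. The number of members above the median gene was 8 under the prior count of 0 and both other lengths. The level of all 10 members stayed within its counting interval with a prior count of 0, by which *Elovl7* rose the most, 1.32 times. With the longest transcript 8 members were higher, by up to 1.51 times (*Elovl1*), and 2 stayed within the interval. With the coding length all 10 were higher, by 2.43 to 8.03 times. No paired analysis was possible because the table has no values per library. For the same reason the genotype test, its DESeq2 and no-filter alternatives and the leaving out of single replicates were not run. Depth limits *Elovl7*, *Scd3*, *Scd4* and *Elovl4*, whose reads over all libraries are few. The annotation used by the authors is not known, so lengths may differ from those they counted on.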
